A study of Mus musculus with 6 samples.

Results

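Interferon-stimulated genes, the transcripts that cells raise when an interferon binds its receptor, were followed as a group of 39 named genes across all 6 arrays of the study. Members were the non-control probes whose RefSeq accession belongs to 1 of the 39 genes, which gave 45 of 55681 probes for 37 genes. Mx1 and Mx2 were matched to no probe and were not analysed here. The 1 probe of Oas3 did not pass the filter on dim probes, so 36 members were tested among 20870 genes and transcripts, and each of the 36 was well above background, the scanner software's call of a reliable signal, on all 6 arrays. The study measured muscle RNA from mice, which the labels assign to the gastrocnemius, with 2 arrays in each of 3 groups. B10_tap held C57BL/10 mice given tap water, MDX_tap held MDX mice given tap water, and MDX_JJ101 held MDX mice given JJ101, which the labels name a bioceramic water, in each case for 10 months. MDX mice carry a mutation of the dystrophin gene in every cell, and C57BL/10 is the strain without it. The age of the mice is not given, and the labels number the replicates without saying whether they were separate mice, so the spread between replicates may be technical.

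Interferons of type I signal through the receptor subunits Ifnar1 and Ifnar2 and the kinases Jak1 and Tyk2 to a complex that holds Stat2 and Irf9 and binds the interferon-stimulated response element (ISRE) in promoters. Interferon gamma, the type II interferon, signals through Ifngr1, Ifngr2, Jak1 and Jak2 and acts on promoters through the gamma-activated site (GAS). The induced proteins block viral replication, attack vacuoles that hold pathogens and feed antigen presentation, and in dystrophic muscle both infiltrating leukocytes and the muscle itself can express them.

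A level is the log2 signal minus the array's 75th percentile, and a difference is the first-named group minus the second on the log2 scale. The labelled tissue was checked against its markers before any result. Of 17 skeletal muscle markers, 6 were well above background on all 6 arrays and 4 (Mylpf, Myod1, Myf5 and Myog) on none, and the fast myosin gene Myh4 was so on both arrays of B10_tap and of MDX_tap and on neither array of MDX_JJ101. Of 14 heart muscle markers, 13 were well above background on all 6 arrays, and Myh6, which encodes the alpha myosin of heart, had levels from 10.17 to 10.45. These markers go against the label of a limb muscle, and the groups are called by their labels here. Dmd, the gene mutated in MDX mice, had levels of 1.06 and 1.06 on the B10_tap arrays, -0.84 and -0.27 for MDX_tap and -1.50 and -1.74 for MDX_JJ101. The share of spots well above background was 48.1% to 51.6% on the tap water arrays and was 43.8% and 42.5% on the MDX_JJ101 arrays. All arrays lay on 1 slide, with MDX_JJ101 in one row and the other groups in the other row, so slide row and JJ101 cannot be told apart, and neither can slide column and genotype.

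Of the 32 members with a promoter at hand, 18 held an ISRE match and 13 a GAS match. Of these 32 members, 7 held both and 8 held neither. Stretches of 60 bases upstream of the start are printed here because the groups of members that follow differ in these elements. They are RefSeq sequences of assembly GRCm38.p6 on the strand of the gene, and capitals mark a match to the ISRE core GAAANNGAAA, read on either strand (TTTCNNTTTC on the other), or to the GAS core TTCNNNGAA, which is the same on both strands. The 4 guanylate-binding protein genes that lie close together on chromosome 3 each held an ISRE match. The windows of Gbp5 and Gbp7 also held 2 GAS matches each, outside the stretches shown.
Gbp2, chr3:142620584-142620643, plus strand: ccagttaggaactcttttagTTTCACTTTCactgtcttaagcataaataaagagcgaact
Gbp3, chr3:142559979-142560038, plus strand: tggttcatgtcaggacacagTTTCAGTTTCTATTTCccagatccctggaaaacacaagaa
Gbp5, chr3:142496749-142496808, plus strand: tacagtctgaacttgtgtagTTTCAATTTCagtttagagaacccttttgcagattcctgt
Gbp7, chr3:142530263-142530322, plus strand: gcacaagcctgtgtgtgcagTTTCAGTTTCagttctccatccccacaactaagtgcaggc
The antiviral genes Ifit1, Isg15 and Oas1a held 2, 3 and 2 ISRE matches, which overlap in Isg15 and Oas1a. The window of Oas1a also held 1 GAS match, outside the stretch shown.
Ifit1, chr19:34640765-34640824, plus strand: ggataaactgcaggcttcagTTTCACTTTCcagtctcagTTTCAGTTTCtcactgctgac
Isg15, chr4:156200857-156200916, minus strand: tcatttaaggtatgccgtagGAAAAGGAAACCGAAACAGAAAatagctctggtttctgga
Oas1a, chr5:120907526-120907585, minus strand: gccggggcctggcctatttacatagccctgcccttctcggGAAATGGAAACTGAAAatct
Irf1, Irf8 and Psmb8, which are known targets of interferon gamma, held GAS matches and no ISRE match.
Irf1, chr11:53769904-53769963, plus strand: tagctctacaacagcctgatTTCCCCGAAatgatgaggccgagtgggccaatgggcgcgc
Irf8, chr8:120736167-120736226, plus strand: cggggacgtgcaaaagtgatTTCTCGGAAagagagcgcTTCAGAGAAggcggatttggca
Psmb8, chr17:34198078-34198137, plus strand: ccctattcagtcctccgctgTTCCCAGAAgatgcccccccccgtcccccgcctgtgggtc
The neighbouring GTPase genes Igtp and Irgm2, which share a near-identical stretch with both elements, and the antiviral gene Rsad2 are shown as further members with an ISRE match; like Isg15, Oas1a and Psmb8, they did not pass the test in any comparison.
Igtp, chr11:58199496-58199555, plus strand: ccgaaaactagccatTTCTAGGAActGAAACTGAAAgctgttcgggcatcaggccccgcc
Irgm2, chr11:58214893-58214952, plus strand: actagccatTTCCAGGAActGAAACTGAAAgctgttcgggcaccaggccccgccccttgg
Rsad2, chr12:26456533-26456592, minus strand: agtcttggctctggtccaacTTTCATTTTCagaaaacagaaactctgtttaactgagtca

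The first comparison, MDX_tap against B10_tap, bears on whether dystrophic muscle on tap water differs from wild-type muscle. Of the 36 members 26 were higher in MDX_tap and 10 lower, and 0 passed limma's test adjusted over all genes (threshold 0.05), against 0.024% of all genes and transcripts. The median difference was 0.21, beside -0.06 over all genes tested, and the members ran from -0.62 for Gbp4 to 0.82 for Oas1a. Irf8, a transcription factor of myeloid cells, at 0.65 (SE 0.19, unadjusted p = 0.0167, adjusted p = 0.164) and Ifit2, which binds viral RNA, at 0.50 (SE 0.12, unadjusted p = 0.0089, adjusted p = 0.142) were the 2 members with an unadjusted p under 0.05. The arrays of the groups did not overlap for 12 members (61.4% of all genes): MDX_tap lay above B10_tap for 11, where 24.4% of all genes did so, and below it for 1, Gbp4, where 37.0% did. The excess differed between the MDX_tap arrays: replicate 1 was above replicate 2 for 35 of the 36 members, by a median of 0.53, whereas over all genes 44.9% were higher on replicate 1. In B10_tap and MDX_JJ101 replicate 1 was also the higher for most members, 28 and 33 of 36, by medians of 0.12 and 0.31, where 48.9% and 49.3% of all genes were. Without MDX_tap replicate 1 the members' median was -0.05, and without MDX_tap replicate 2 it was 0.45.

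The second comparison, MDX_JJ101 against MDX_tap, bears on the effect of the water in MDX mice. The members were mostly lower in MDX_JJ101: 9 of 36 fell (25.0%), 0 rose, and 32 had a negative difference, where 36.1% of all genes passed, 16.1% lower and 19.9% higher, and 50% were negative. The genes that fell were the transcription factor genes Irf1 and Irf8, the RNA sensor gene Ifih1, the antiviral genes Ifit1, Ifit2 and Isg20, and the guanylate-binding protein genes Gbp2, Gbp3 and Gbp4. Their falls ran from 0.59 for Irf1 (1.51-fold) to 1.41 for Ifit1 (2.65-fold). The median over the members was -0.56 beside 0.00082 over all genes tested, and the members ran from -1.41 to 0.36. The arrays did not overlap for 26 members (72.7% of all genes), with MDX_JJ101 below MDX_tap for 24 members (35.4% of all genes) and above it for 2, Gbp6 and Ifi35 (37.3% of all genes). Within slide column 3 the difference was negative for 33 members, with a median of -0.67. Over all genes 47.7% were negative there, with a median of 0.03. Within slide column 4 it was negative for 30 members, with a median of -0.50. Over all genes 51.2% were negative there, with a median of -0.02. The number of calls depended on the arrays fitted, among all genes as among the members. Leaving out 1 array of either tap water group ended the members' calls and cut those over all genes. Without MDX_JJ101 replicate 2 calls were also fewer in both sets, and without MDX_JJ101 replicate 1 they were more. With the slide column as a block 0 of the 36 members and 0 of all genes passed limma's test. There 22 members were lower at an unadjusted p under 0.05, and 8858 of all genes differed at that level. The median moved to -0.33 without MDX_tap replicate 1 and to -0.82 without MDX_tap replicate 2. It was -0.72 without MDX_JJ101 replicate 1, -0.39 without MDX_JJ101 replicate 2 and -0.56 without either B10_tap array. With spike-in scaling, which shifts all genes of an array alike, it was -0.99 and the median over all genes was -0.43.

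The third comparison, MDX_JJ101 against B10_tap, shares the MDX_JJ101 arrays with the second and the B10_tap arrays with the first. Irf1 and 5 of the 6 guanylate-binding protein genes (Gbp2, Gbp3, Gbp4, Gbp5 and Gbp7) were lower in MDX_JJ101 than in wild-type muscle, which made 6 of 36 members (16.7%), where 33.6% of all genes passed and 17.4% fell. No member rose, where 16.2% of all genes did, with 1 member, Gbp6, higher at an unadjusted p under 0.05. The median was -0.27 beside -0.0065 over all genes, and 29 of the 36 differences were negative. The arrays did not overlap for 24 members (75.2% of all genes), with MDX_JJ101 below B10_tap for 21 (37.3% of all genes) and above it for 3 (37.9%). The median was -0.13 without MDX_JJ101 replicate 2 and -0.43 without MDX_JJ101 replicate 1. Its direction turned with median centring, which put the median over all genes at 0.39 and that of the members at 0.13. There 22 members were positive and 14 negative, with 2 called higher and 3 lower. Of all 20870 genes 8457 rose and 1645 fell (7.88%) with that scaling. The calls ended for all 6 without B10_tap replicate 1 or without B10_tap replicate 2, with medians of -0.22 and -0.32. Calls over all genes were also fewer in those fits. Without MDX_JJ101 replicate 2 fewer members passed, as did fewer of all genes.

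**Figure D1:**
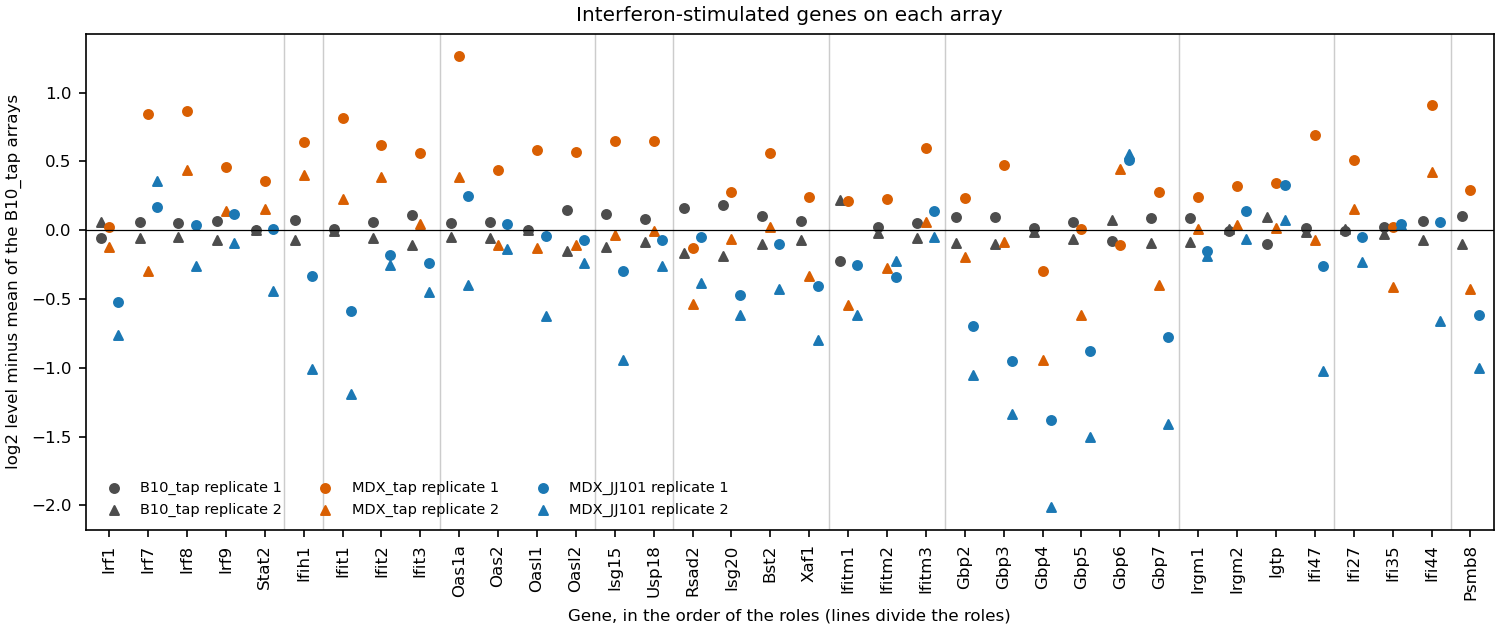
Level of each of the 36 tested members on each array (log2), as the difference from the mean of the 2 B10_tap arrays; colours are groups and symbols replicates, and grey lines divide the roles. MDX_tap replicate 1 is above replicate 2 for 35 of the 36 genes, and the MDX_JJ101 arrays of Gbp2, Gbp3, Gbp4, Gbp5 and Gbp7 lie below all other arrays.

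**Figure D2:**
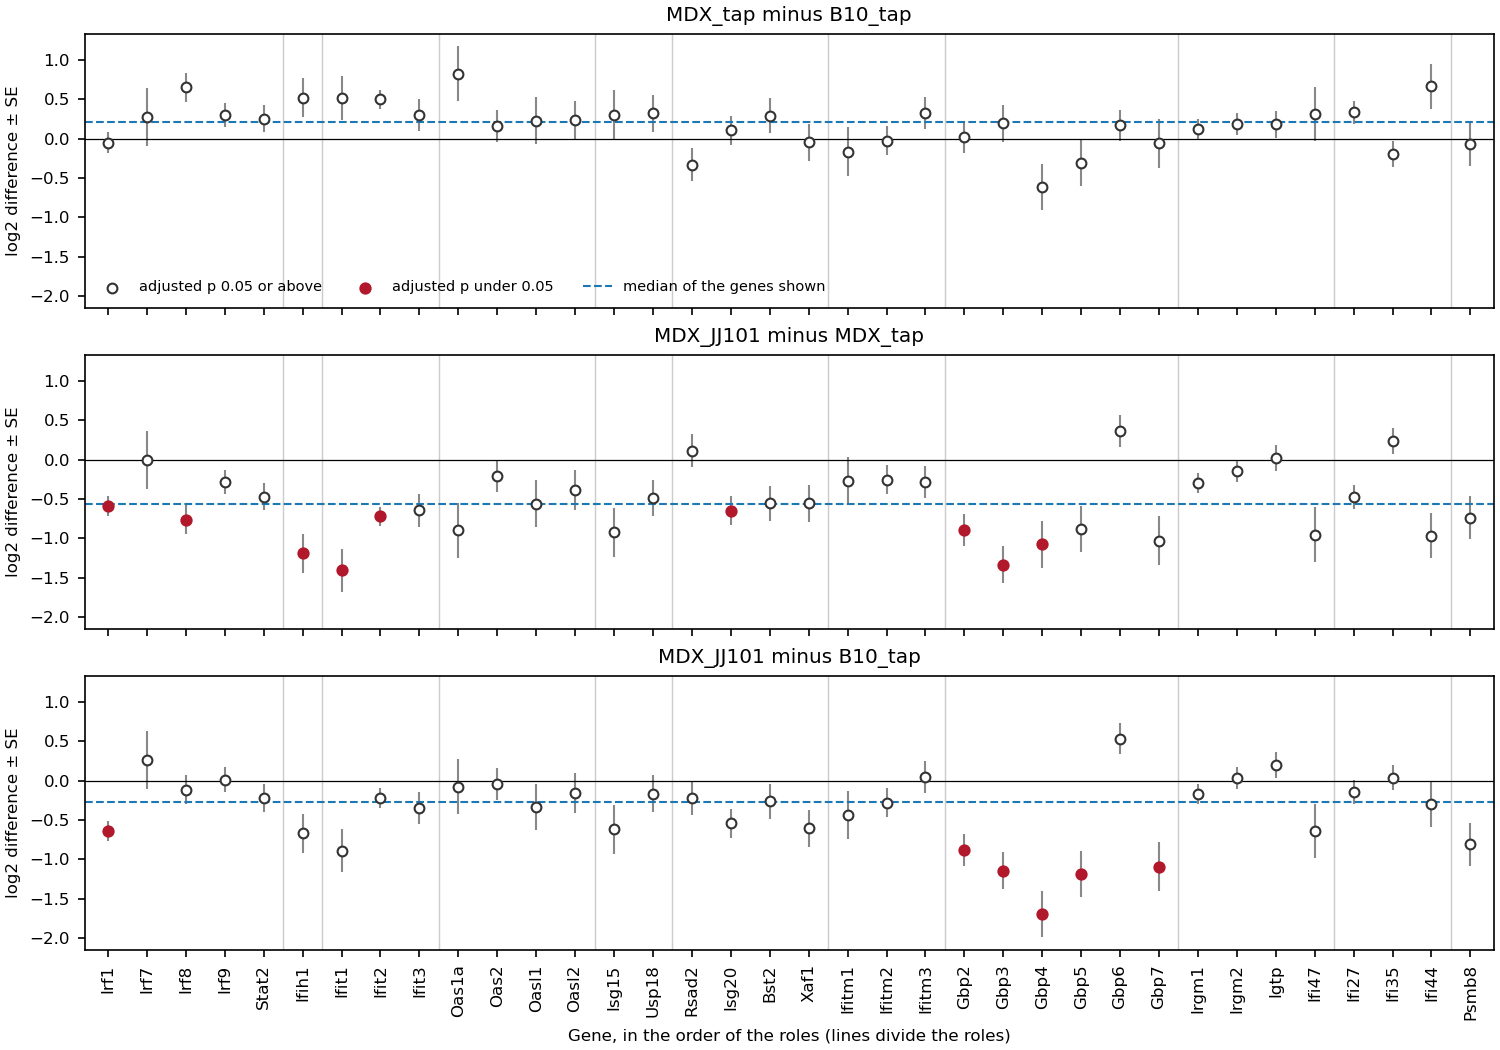
Log2 difference of each member in the 3 comparisons, with the limma SE as bars; filled points have an adjusted p under 0.05, and the dashed line is the median of the genes shown. The medians are 0.21, -0.56 and -0.27, and filled points are absent from the first panel, 9 in the second and 6 in the third.

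Among the transcription factors of the response, Irf1 and Irf8 fell with JJ101 and Irf7, Irf9 and Stat2 did not pass the test. Irf1, which activates genes of the interferon gamma response, had levels of 3.51 and 3.63 on the B10_tap arrays, 3.59 and 3.44 for MDX_tap and 3.04 and 2.81 for MDX_JJ101. The MDX_JJ101 arrays were the lowest, and the other groups overlapped. The difference was -0.59 from MDX_tap (SE 0.13, adjusted p = 0.0252) and -0.64 from B10_tap (SE 0.13, adjusted p = 0.0223). Irf8 had levels of 1.02 and 0.92 on the B10_tap arrays, 1.83 and 1.41 for MDX_tap and 1.01 and 0.71 for MDX_JJ101. Both MDX_tap arrays were above all others, and those of MDX_JJ101 and B10_tap overlapped. Irf8 fell by 0.76 from MDX_tap to MDX_JJ101 (SE 0.19, adjusted p = 0.0327), and the difference from B10_tap was -0.11 (adjusted p = 0.662).

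Stat2 and Irf9, which belong to the complex that binds the ISRE, did not pass in any comparison. Stat2 stood at 1.13 and 1.14 on the B10_tap arrays, 1.49 and 1.29 for MDX_tap and 1.14 and 0.70 for MDX_JJ101, and Irf9 at 2.10 and 1.96, 2.48 and 2.17, and 2.15 and 1.93. For both genes the MDX_tap arrays were above all others, and the other groups overlapped. Against MDX_tap the MDX_JJ101 difference was -0.47 for Stat2 (SE 0.18, adjusted p = 0.0905) and -0.29 for Irf9 (SE 0.16, adjusted p = 0.196). Irf7, which amplifies type I interferon transcription and is itself induced, had levels of -0.53 and -0.64 on the B10_tap arrays, 0.25 and -0.88 for MDX_tap and -0.42 and -0.23 for MDX_JJ101. The MDX_tap arrays held both its highest and its lowest value, so the group spread exceeded the difference of -0.01 between the MDX groups (SE 0.37, adjusted p = 0.986).

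Ifih1 encodes MDA5, which senses long double-stranded RNA in the cytoplasm and is both a sensor and an induced gene. Its levels were 0.94 and 0.79 on the B10_tap arrays, 1.51 and 1.27 for MDX_tap and 0.53 and -0.14 for MDX_JJ101. The groups did not overlap, with MDX_tap at the top and MDX_JJ101 at the bottom. The fall from MDX_tap to MDX_JJ101 was 1.19 (SE 0.24, 2.29-fold, adjusted p = 0.0213), while -0.67 against B10_tap (SE 0.24, adjusted p = 0.0859) and 0.52 for MDX_tap against B10_tap (SE 0.24, adjusted p = 0.291) did not pass.

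The IFIT proteins bind foreign RNA and stop its translation. Ifit1 had levels of -0.77 and -0.79 on the B10_tap arrays, 0.03 and -0.56 for MDX_tap and -1.37 and -1.97 for MDX_JJ101. Here too no array of one group reached another group. The fall with JJ101 was 1.41 (SE 0.28, adjusted p = 0.0200), the largest among the members, and the difference from B10_tap was -0.89 (SE 0.28, adjusted p = 0.0599). Ifit2 stood at -0.21 and -0.33 on the B10_tap arrays, 0.35 and 0.11 for MDX_tap and -0.45 and -0.53 for MDX_JJ101, in the same order of groups without overlap. Ifit2 fell by 0.72 (SE 0.12, adjusted p = 0.0156), the smallest adjusted p of the members in this comparison. Ifit3, the neighbour of Ifit2, was lower on both MDX_JJ101 arrays than on all others, with a difference from MDX_tap of -0.65 (SE 0.21, adjusted p = 0.0610).

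The oligoadenylate synthetases, which make the messenger that activates RNase L, and their relatives did not pass in any comparison. Against MDX_tap the differences of the 4 tested genes (Oas1a, Oas2, Oasl1 and Oasl2) were all negative, from -0.90 for Oas1a (SE 0.35, adjusted p = 0.0987) to -0.21 for Oas2. Against B10_tap they lay between -0.34 and -0.05. Oas1a also had the largest excess of the members in MDX_tap over B10_tap (0.82, SE 0.35, adjusted p = 0.262), and a further probe of it gave 0.63 there and -0.72 between the MDX groups.

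Isg15 encodes a ubiquitin-like modifier of antiviral proteins and Usp18 the protease that removes it, and neither passed. Isg15 stood at 3.13 and 2.89 on the B10_tap arrays, 3.65 and 2.97 for MDX_tap and 2.71 and 2.07 for MDX_JJ101. Both MDX_JJ101 arrays were below all others, but the spread within each MDX group was wide. The difference from MDX_tap was -0.92 (SE 0.31, adjusted p = 0.0711), and a second Isg15 probe gave -1.05. Usp18 differed by -0.49 (SE 0.23, adjusted p = 0.154).

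Of the other antiviral effectors, the exonuclease gene Isg20 fell with JJ101. Its levels were 2.43 and 2.06 on the B10_tap arrays, 2.52 and 2.18 for MDX_tap and 1.78 and 1.63 for MDX_JJ101. The MDX_JJ101 arrays were the lowest, and B10_tap and MDX_tap overlapped. The difference from MDX_tap was -0.65 (SE 0.19, adjusted p = 0.0469) and that from B10_tap -0.54 (SE 0.19, adjusted p = 0.0756). A second Isg20 probe gave -0.42 and -0.35. On that probe the MDX groups overlapped, with MDX_JJ101 replicate 1 at 1.20 and MDX_tap replicate 2 at 1.12. The tetherin gene Bst2, which holds budding virus at the cell surface, Xaf1, which promotes cell death, and Rsad2, which encodes viperin, did not pass and lay between -0.56 and 0.11 against MDX_tap. The probes of Xaf1 disagreed in direction there, with -0.56 for the probe used and 0.11 for the other. The IFITM proteins, which hinder the fusion of virus with membranes, did not pass either: Ifitm1, Ifitm2 and Ifitm3 lay between -0.28 and -0.26 against MDX_tap and between -0.44 and 0.05 against B10_tap, and their arrays overlapped between the MDX groups.

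The guanylate-binding proteins are large GTPases, induced chiefly by interferon gamma, that coat and break open pathogen vacuoles, and they held most of the calls against wild-type muscle. Gbp3 had levels of 1.82 and 1.62 on the B10_tap arrays, 2.19 and 1.63 for MDX_tap and 0.77 and 0.38 for MDX_JJ101. Both MDX_JJ101 arrays were well below the overlapping arrays of the tap water groups. Its differences were -1.34 from MDX_tap (SE 0.24, 2.52-fold, adjusted p = 0.0167) and -1.14 from B10_tap (SE 0.24, adjusted p = 0.0238). Gbp2 stood at 2.46 and 2.28 on the B10_tap arrays, 2.61 and 2.18 for MDX_tap and 1.67 and 1.32 for MDX_JJ101, the same pattern. Gbp2 differed by -0.90 (SE 0.20, adjusted p = 0.0269) and -0.88 (SE 0.20, adjusted p = 0.0299).

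In Gbp4 the groups stood in the order B10_tap, MDX_tap and MDX_JJ101 from high to low, with levels of 0.93 and 0.91, 0.63 and -0.02, and -0.46 and -1.09. The groups did not overlap. The difference was -1.70 from B10_tap (SE 0.30, 3.24-fold, adjusted p = 0.0172) and -1.08 from MDX_tap (SE 0.30, adjusted p = 0.0421), and -0.62 for MDX_tap against B10_tap did not pass (SE 0.30, adjusted p = 0.299). Gbp5 had levels of 1.05 and 0.92 on the B10_tap arrays, 0.99 and 0.37 for MDX_tap and 0.11 and -0.52 for MDX_JJ101. The MDX_JJ101 arrays were the lowest, and those of the tap water groups overlapped. Gbp5 fell by 1.19 against B10_tap (SE 0.29, adjusted p = 0.0339), and -0.89 against MDX_tap did not pass (SE 0.29, adjusted p = 0.0662). Gbp7 fell by 1.09 against B10_tap (SE 0.31, adjusted p = 0.0472) and differed by -1.03 from MDX_tap (SE 0.31, adjusted p = 0.0518).

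Gbp6, singled out after its values were seen, was the exception of its family. Its differences were positive, at 0.36 from MDX_tap (SE 0.20, adjusted p = 0.197) and 0.53 from B10_tap (SE 0.20, adjusted p = 0.0918), and a second probe gave 0.46 and 0.67. With spike-in scaling the first of these was -0.07. By the gene table, Gbp5, Gbp7, Gbp3 and Gbp2 follow each other on chromosome 3 with Gbp2b between the last pair, and Gbp4 and Gbp6 lie on chromosome 5 in the row Gbp8, Gbp9, Gbp4, Gbp10 and Gbp6. Of the neighbours that are no members, Gbp9 fell by 0.88 against MDX_tap (adjusted p = 0.0272) and Gbp10 differed by -0.21 (adjusted p = 0.301). These genes arose by duplication and are alike in sequence, so a probe may take signal from a relative.

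The immunity-related GTPases, which also act on vacuoles, did not pass in any comparison. Irgm1, Irgm2, Igtp and Ifi47 ran from -0.95 for Ifi47 (SE 0.35, adjusted p = 0.0839) to 0.02 for Igtp against MDX_tap, and the arrays of Irgm2 and Igtp overlapped between all groups but for Irgm2 in MDX_tap against B10_tap. Ifi27, Ifi35 and Ifi44, induced genes of less settled function, ran from -0.97 for Ifi44 (SE 0.29, adjusted p = 0.0515) to 0.23 for Ifi35. Psmb8 encodes a catalytic subunit of the immunoproteasome, which cuts peptides for class I presentation, and stood at 2.75 and 2.54 on the B10_tap arrays, 2.94 and 2.22 for MDX_tap and 2.03 and 1.65 for MDX_JJ101. Both MDX_JJ101 arrays lay below all others, with differences of -0.74 from MDX_tap (SE 0.27, adjusted p = 0.0875) and -0.81 from B10_tap (SE 0.27, adjusted p = 0.0739) that did not pass.

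Most interferon transcripts were hardly measurable. The ligand list also holds the cytokine genes Il15 and Il27. Of its 14 genes with a probe, 8 were well above background on no array, among them Ifnb1 (interferon beta) and Ifng (interferon gamma). Ifnl3, Il15 and Il27 were well above background on all 6 arrays, and 4 genes of the list were tested. None of the 4 passed between the MDX groups or between MDX_tap and B10_tap by limma (0 and 3 at an unadjusted p under 0.05). Against B10_tap, 3 fell in MDX_JJ101, where 17.4% of all genes did. These were Ifnl3, a type III interferon, by 0.67 (adjusted p = 0.0238), and the cytokine genes Il27 by 0.56 (adjusted p = 0.0166) and Il15 by 0.57 (adjusted p = 0.0425). Ifnl3 had the smallest p of the list between the MDX groups, at -0.30 (adjusted p = 0.145).

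The receptor and signalling genes held calls in both directions with JJ101. Over all genes 19.9% rose and 16.1% fell against MDX_tap, and 16.2% rose and 17.4% fell against B10_tap. Of 6 receptor genes against MDX_tap, Ifngr1, the ligand-binding chain of the interferon gamma receptor, fell by 0.56 (SE 0.14, adjusted p = 0.0326) and its partner Ifngr2 rose by 0.37 (SE 0.09, adjusted p = 0.0340); against B10_tap Ifngr2 rose by 0.34 and no receptor gene fell. Of 11 signal transducers the kinase gene Tyk2 rose by 0.63 (adjusted p = 0.0210) and Stat3 by 0.37 (adjusted p = 0.0482), and the kinase gene Jak2 fell by 0.50 (adjusted p = 0.0314). Against B10_tap Stat3 alone of the transducers passed, higher by 0.64 (adjusted p = 0.0156).

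Sensors and inhibitors also held calls in both directions, in numbers to be read against those same shares of all genes. Of 14 nucleic acid sensors and adaptors, 2 rose and 4 fell against MDX_tap: the adaptor genes Ticam1 by 0.58 (adjusted p = 0.0167) and Mavs by 0.73 (adjusted p = 0.0194) rose, and Sting1, which relays signals of cytoplasmic DNA, fell by 0.74 (adjusted p = 0.0195). Against B10_tap 3 of them rose and 1 fell. Of 16 inhibitors of the pathway 4 rose and 1 fell, led by the DNA exonuclease gene Trex1 at 0.56 (adjusted p = 0.0155), the phosphatase gene Ptpn11 at 0.59 (adjusted p = 0.0219) and the RNase H2 subunit gene Rnaseh2a at 0.58 (adjusted p = 0.0252). Against B10_tap 3 inhibitors rose and 0 fell. Between MDX_tap and B10_tap, 0 genes of the receptor, transducer, sensor and inhibitor lists passed by limma (1, 4, 4 and 4 had an unadjusted p under 0.05).

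Other interferon-induced genes, a list apart from the members, were also mostly lower with JJ101. Of 52 tested 21 fell and 1 rose against MDX_tap, where 16.1% and 19.9% of all genes did, with a median of -0.52 and 45 negative differences. Ifi204, a DNA-binding protein of the interferon-inducible HIN family, fell by 0.88 (SE 0.11, adjusted p = 0.0129), Samd9l, an inhibitor of growth and of poxviruses, by 1.24 (SE 0.17, adjusted p = 0.0130) and the giant GTPase gene Gvin1 by 1.32 (SE 0.19, adjusted p = 0.0131). Against B10_tap 13 fell and 6 rose, where 17.4% and 16.2% of all genes did, with a median of -0.29. For MDX_tap against B10_tap the median was 0.21 with 0 calls by limma (10 higher at an unadjusted p under 0.05). In class I antigen processing 2 of 16 genes fell with JJ101, near the 16.1% of all genes, and 0 rose, H2-M3 by 0.78 (SE 0.15, adjusted p = 0.0204) and H2-Q4 by 0.56 (SE 0.16, adjusted p = 0.0431), and B2m, the light chain of class I molecules, differed by -0.61 (SE 0.18, adjusted p = 0.0531). Against B10_tap H2-Q4 alone of that list fell, by 0.72 (adjusted p = 0.0259).

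Markers of other cells moved beside the members, and in whole muscle fewer cells of a type and less RNA per cell cannot be told apart. The counts are to be read against all genes, of which 16.1% fell and 19.9% rose in MDX_JJ101 against MDX_tap. Of 15 macrophage markers, all well above background on the 6 arrays, 9 fell and 1 rose in MDX_JJ101 against MDX_tap, and their summed level was 6.92 to 6.99 in B10_tap, 7.23 to 7.56 in MDX_tap and 6.87 to 6.99 in MDX_JJ101. In MDX_tap against B10_tap 0 of these markers passed by limma, and 10 were higher at an unadjusted p under 0.05. Of 10 tested T and NK cell markers 3 fell, with a summed level of 3.31 to 3.32, 3.28 to 3.42 and 2.98 to 3.06, and Cd8a, Cd8b1, Gzmb, Klrb1c and Ncr1 were well above background on no array. The summed level of both lists was higher on MDX_tap replicate 1 than on replicate 2, while the T and NK cell markers Prf1, Cd3e, Cd4 and Cd247 were lower on replicate 1. Of 9 endothelial markers 5 fell, with a summed level of 6.44 to 6.53 in B10_tap, 6.50 to 6.56 in MDX_tap and 6.01 to 6.14 in MDX_JJ101. Fibroblast markers fell for 3 of 7, with summed levels of 8.86 to 8.95, 9.51 to 9.61 and 8.14 to 8.73, B and plasma cell markers for 3 of 5, dendritic cell markers for 1 of 5 and neutrophil markers for 1 of 4. Of 4 plasmacytoid dendritic cell markers 2 fell and 1 rose, and that list includes Cox6a2, which striated muscle also expresses. Heart muscle markers rose for 5 of 13 and fell for 0, and skeletal muscle markers rose for 2 of 13 and fell for 7. The part of these cell types in the lower levels of the members was not tested.

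The differences were also set against level, because over all genes the difference between the MDX groups changed with it. With all genes split by mean level into 3 classes of equal size, the median over all genes was -0.30 in the low class, 0.02 in the middle class and 0.22 in the high class. No member belonged to the low class. Of 21 members in the middle class 19 had a negative difference and 6 fell, where 15.4% of all genes of that class did, with a median of -0.65. Of 15 in the high class 13 were negative and 3 fell, where 9.98% of all genes there did, with a median of -0.47.

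**Figure D3:**
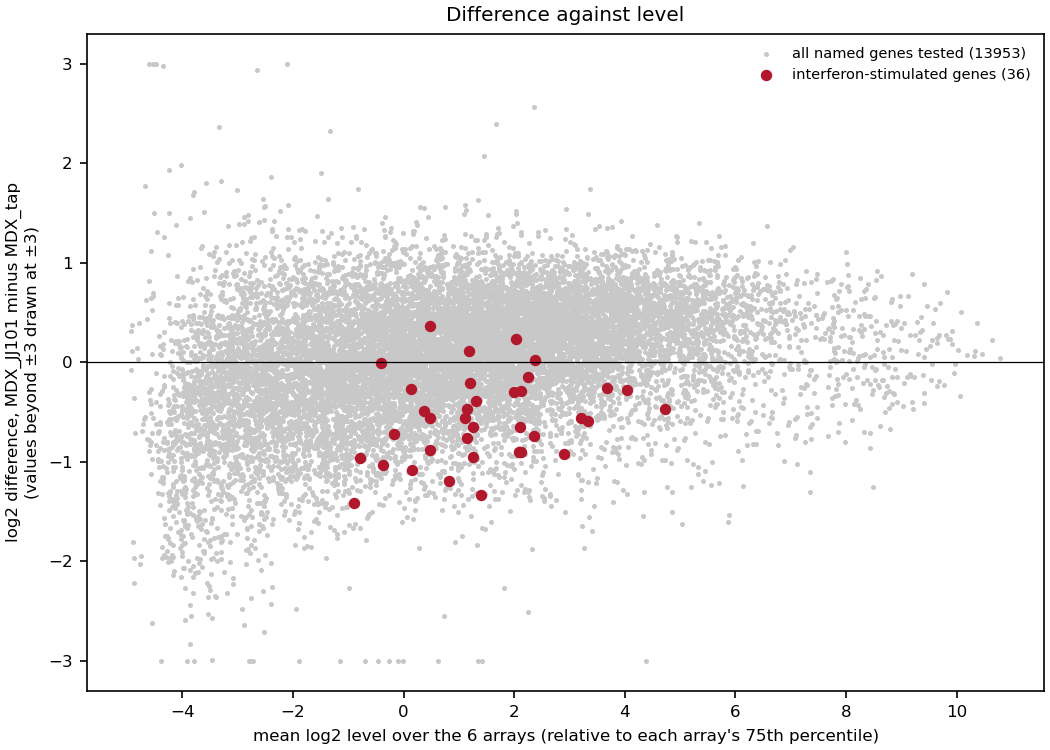
Log2 difference of MDX_JJ101 from MDX_tap (vertical) against mean log2 level over the 6 arrays (horizontal) for all named genes tested (grey) and the 36 members (red); values beyond 3 in size are drawn at the edge. Of the members, 32 lie below 0, and none belongs to the low class of level.

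Promoters were searched for the elements shown at the start in a window from 250 bases before to 50 bases after each RefSeq start. A promoter was at hand for 32 of the 39 members; Oas2, Usp18, Mx1, Mx2, Gbp4, Gbp6 and Ifi27 had none in the table. An ISRE core was found for 18 of the 32 (56.2%), where 3.99% of all genes hold it, and a GAS core for 13 (40.6%), where 9.55% do. The elements overlapped each other in Bst2 and Ifitm3. Against MDX_tap, where 16.1% of all genes fell, 4 of 10 tested members with an ISRE core alone fell (median -0.77), as did 4 of 6 with a GAS core alone (median -0.68), 0 of 7 with both (median -0.56) and 0 of 8 with neither (median -0.47). The ranges of these classes overlapped, from -1.41 to 0.11 for the ISRE alone, from -0.76 to 0.23 for the GAS alone, from -1.03 to 0.02 for both and from -0.97 to -0.01 for neither. A match is a description of letters in a window and says nothing of binding in these samples, and a window without one says nothing of sites elsewhere.

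**Figure D4:**
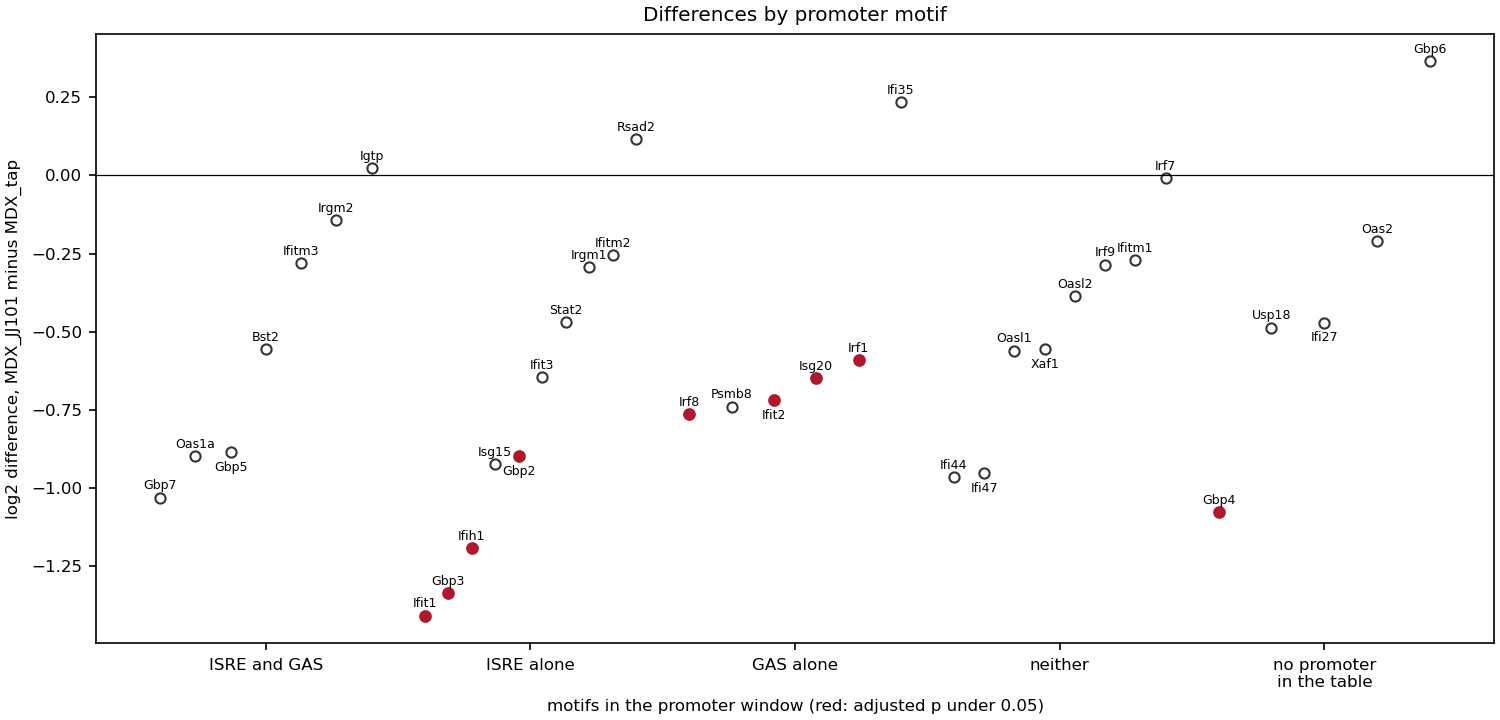
Log2 difference of MDX_JJ101 from MDX_tap for each member, grouped by the cores found in its promoter window; red points have an adjusted p under 0.05. Red points stand under the ISRE alone (4), the GAS alone (4) and no promoter in the table (1), and all classes overlap.

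The members' median difference between the MDX groups was negative under all 18 alternatives, while the number of calls varied. It ran from -0.99 with spike-in scaling to -0.33 with median centring or without MDX_tap replicate 1. The 2-group fits, both blocks, the filter on all arrays and leaving out a B10_tap array left the members' differences unchanged, with a median of -0.56. Those alternatives bear on the calls and not on the sign. None of the 9 genes that fell changed sign in any of the 18 alternatives. Gbp3 and Ifih1 passed in 12 of these, Ifit1, Ifit2 and Gbp2 in 11, Irf8 and Gbp4 in 10, Irf1 in 9 and Isg20 in 7. Probes also bore on it: of the members with more than 1 probe above the filter, all but Xaf1 had probes of the same sign in this comparison.

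**Figure D5:**
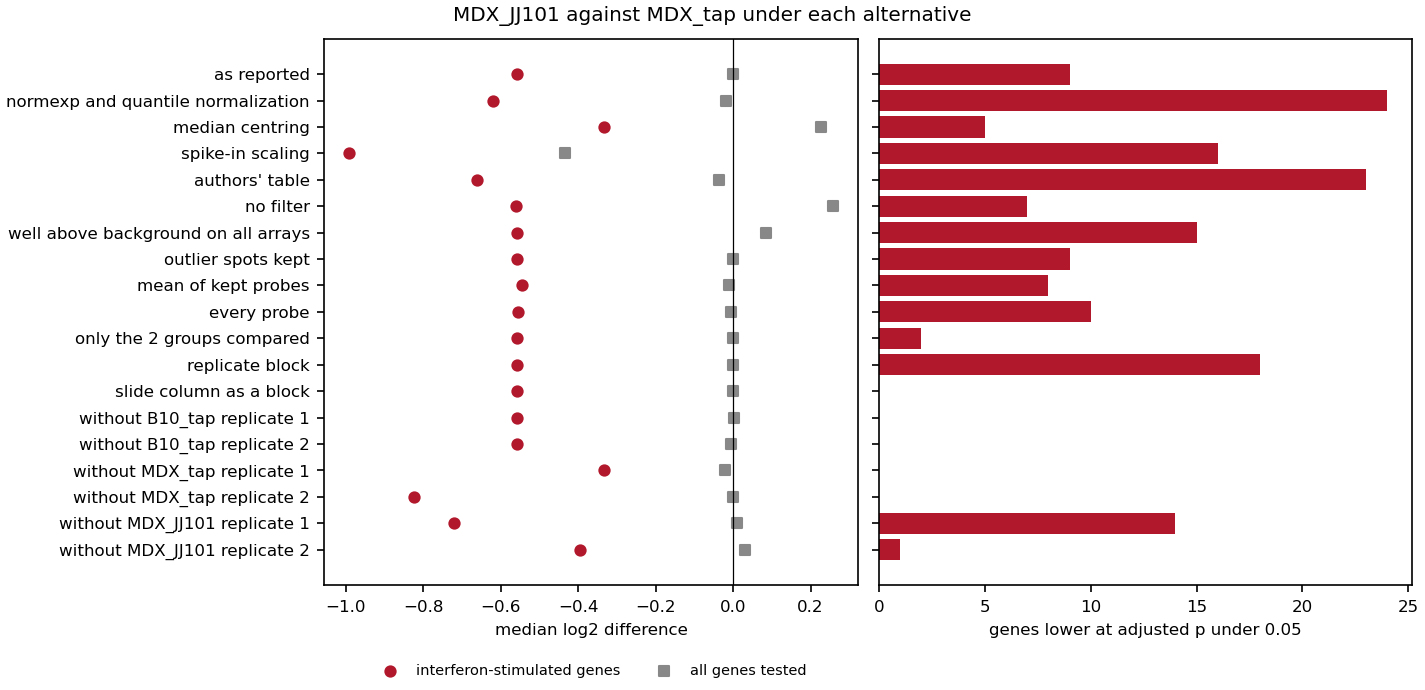
Median log2 difference of MDX_JJ101 from MDX_tap over the members (red) and over all genes tested (grey) under each alternative, and beside it the number of members lower at an adjusted p under 0.05 (of 36, of 37 without a filter and of 42 probes with every probe). The red points lie between -0.99 and -0.33 and left of the grey point in every row, and the bars run from 0 to 24.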

How the data were processed

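Total RNA was labelled with Cy3 and hybridised to 1-colour Agilent arrays, 6 in all. Per the submitters' processing notes, the authors used Agilent Feature Extraction 11.5.1.1, and the deposited intensity is its processed signal, which is background-subtracted; the deposited 0 or 1 flags mark spots that are saturated, outliers or well above background (other columns, per the file headers). The authors' series table holds log2 values whose rank order is that of the median spot signal on each array (Spearman 1) and served as an alternative only; its centring is a common distribution for all columns, and its exact method is not given in the sources used here.

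Here, the log2 processed signal minus the 75th percentile over 59305 non-control spots was used. Outlier spots were dropped and spots of a probe averaged. RefSeq accessions named 27656 of 55681 probes through a gene table of GRCm38.p6; the array files are on mm9, so the table gave names and neighbours only. A probe was kept where some group had it well above background on each of its arrays (27260), and the probe with the highest mean stood for its gene (20870 genes and transcripts). A single limma model (limma 3.58.1, R 4.3.3; 3 residual and 2.21 prior degrees of freedom) held all 3 groups; p-values were two-sided, adjusted by Benjamini-Hochberg over every gene tested, and called under 0.05. Precision is limited by the number of arrays. The steps were tested on simulated data with independent noise and few changed genes. That setting is simpler than these arrays, so it checks the steps only. No probe of a member was saturated. Where a group had no array well above background, a fold is a bound, taken against the lowest signal called well above background.

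The members and gene lists were chosen with earlier results of these data known. Every member is named, with values on each array for those that passed (at most 4 a role) and for Stat2, Irf9, Irf7, Isg15, Ifit1 and Psmb8; of each list, up to 3 genes with the smallest adjusted p between the MDX groups, or 1 where none passed, are named.

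Alternatives were normexp (offset 50) with quantile normalization, median centring, spike-in scaling (239 spots), the authors' table, other filters and probe rules, 2-group fits, replicate and slide column blocks, and leaving out each array. The files hold no mean spot signal, so normexp was run on the median spot signal and not on the mean as planned. A block on slide row could not be fitted, since the row is that of JJ101.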

Additional observations from a re-analysis of the deposited data

How the results depend on the processing

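For MDX_tap against B10_tap, 0 members passed under every alternative, while the number of all genes passing moved from 5 to 407 with normexp and quantile normalization, 285 with median centring, 415 with spike-in scaling, 337 with the authors' table, 151 with all arrays well above background, 15 with every probe and 125 with only the 2 groups compared. With no filter limma passed 0 (5113 had an unadjusted p under 0.05) and the count was 17 to 190 when leaving out each array. For MDX_JJ101 against MDX_tap, all genes passing went from 7530 to 3796 with spike-in scaling, 13640 without a filter, 3249 with only the 2 groups compared, 0 with the slide column as a block (8858 at an unadjusted p under 0.05) and 0 to 7978 when leaving out each array, 0 being without B10_tap replicate 2 (8857 at an unadjusted p under 0.05). Members lower went from 9 (16.1% of all genes lower) to 24 with normexp and quantile normalization (18.1%), 23 with the authors' table (19%), 16 with spike-in scaling (17.8%), 15 with all arrays well above background (16.9%), 5 with median centring (9.09%), 2 with only the 2 groups compared (7.14%), 0 with the slide column as a block and 0 to 14 when leaving out each array; the median was -0.99 with spike-in scaling. For MDX_JJ101 against B10_tap, all genes passing went from 7009 to 4459 with spike-in scaling, 14092 without a filter and 427 to 7205 when leaving out each array. Members passing went from 6 to 10 with normexp and quantile normalization or the authors' table, 12 with spike-in scaling and 0 to 8 when leaving out each array. The median turned to 0.13 with median centring and was -0.73 with spike-in scaling. Direction over all genes depended on scaling: between the MDX groups 5692 rose and 1898 fell with median centring and 81 rose and 3715 fell with spike-in scaling, beside 4160 and 3370. Both scalings shift all genes of an array alike, so the members relative to all genes say nothing about them. Over all genes the replicate differences correlated between groups at -0.03, -0.06 and 0.16, while replicate 1 was the higher for most members in every group. In both MDX groups the replicate number goes with the slide column, 3 for replicate 1 and 4 for replicate 2. Whether it pairs the samples is therefore not settled. With a replicate block 18 members were lower in MDX_JJ101 than in MDX_tap, where 14.5% of all genes were. Against B10_tap 10 were lower in MDX_JJ101, where 15.2% of all genes were. For MDX_tap against B10_tap 0 members and 4 of all genes passed with that block. Signal over background, not read depth, limits dim genes, among them most interferon ligands. The cause of these changes was not tested. In leave-one-out fits a lone array is assumed to vary like the other groups.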
